A study of Homo sapiens with 6 samples.

Results

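The genes described here encode 8 enzymes of the mevalonate pathway, ACAT2, HMGCS1, MVK, PMVK, MVD, IDI1, FDPS and GGPS1. They were chosen by name for their place in the pathway, and all of the 8 were found among the 16670 genes of the deposited table. The data are RNA-seq values of A549, an established human line of non-small cell lung cancer, in 2 groups of 3 libraries labelled as biological replicates. The salinomycin group was cells made senescent by 1 week of alisertib, which blocks the cell division kinase Aurora A, and then given 2.5 µM salinomycin, a polyether ionophore, for 48 h. The untreated group had the same week of alisertib and no salinomycin. Both groups therefore carry the effect of alisertib, and cells without it were not analysed here. Estimated depth was 14926101 to 19617302 reads in salinomycin libraries and 13539959 to 16457408 reads in untreated libraries.

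The mevalonate pathway builds isoprenoids from acetyl-CoA. A thiolase and HMG-CoA synthase join acetyl-CoA units, HMG-CoA is reduced to mevalonate, and a pair of kinases and a decarboxylase turn mevalonate into isopentenyl diphosphate. An isomerase makes its partner dimethylallyl diphosphate, and prenyl transferases join these units into farnesyl diphosphate and then geranylgeranyl diphosphate. Farnesyl diphosphate feeds sterols, dolichol and the ubiquinone side chain, and both end products are attached to proteins such as the small GTPases. Transcription of most of the enzymes is known to be driven by the sterol-regulated factor SREBP2, which works together with NF-Y, a factor that binds CCAAT boxes.

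With salinomycin 7 of the 8 genes rose and 1 fell. MVK, the gene of mevalonate kinase, rose 12.2-fold, IDI1 rose 8.96-fold and MVD rose 6.91-fold. FDPS, HMGCS1, PMVK and ACAT2 rose between 2.18-fold and 4.58-fold, and GGPS1, the gene at the geranylgeranyl branch, fell 1.72-fold. The test was limma on log2 of the normalised value plus 1, with Benjamini-Hochberg adjustment over the 13088 genes tested, and the threshold was an adjusted p of 0.05. The background is high, since 41.6% of tested genes rose and 40.2% fell. The groups did not overlap for any of the 8 genes, and for 83% of tested genes. The median log2 change was 2.04 over the 8 genes and 0.022 over all tested genes. Levels are relative to the other transcripts of a library, and in bulk RNA fewer expressing cells and less RNA per cell cannot be told apart.

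**Figure D1:**
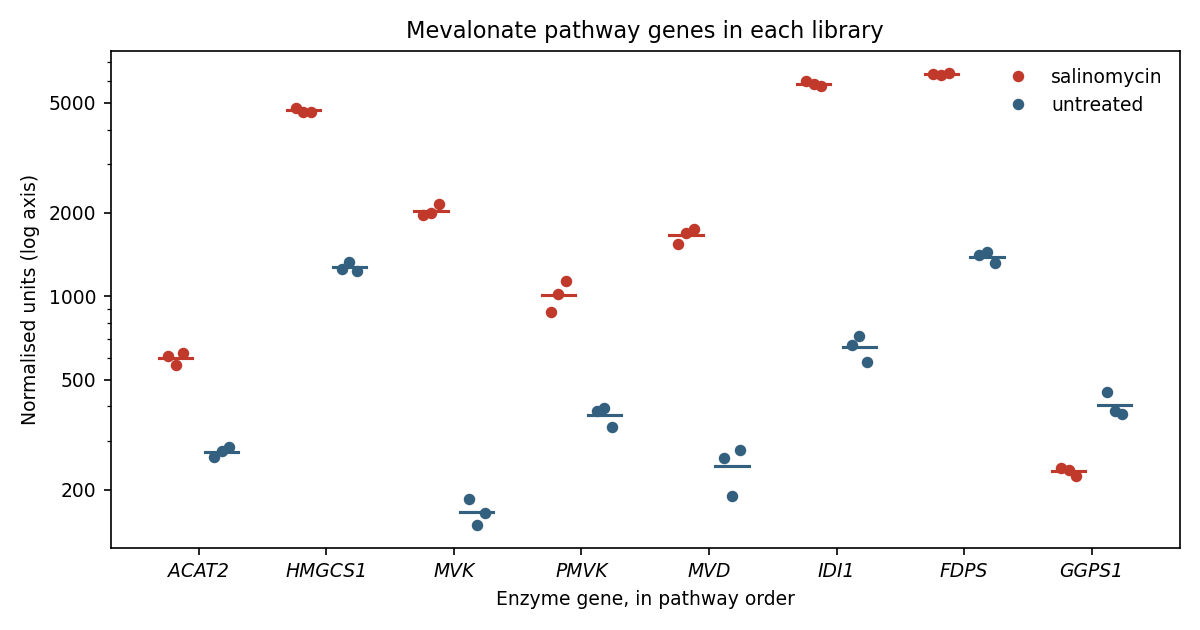
Normalised units (log axis) of each mevalonate pathway gene in every library, salinomycin in red and untreated in blue, with a bar at each mean (n = 3). The groups do not overlap for any of the 8 genes, and GGPS1 is the gene whose salinomycin values, 224.4 to 239.8, lie below its untreated values.

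The promoters of these genes were read beside their changes, for the genes that rose and for GGPS1, which fell. RefSeq promoter sequences (GRCh38.p14) matched 7 of the 8 genes, in 12 windows of 250 bases that end just before an annotated start. Some windows lie inside the gene by the GENCODE coordinates given further on, among them the printed ones of MVK, PMVK and IDI1. The MVK gene starts there at 109573255, and PMVK, on the minus strand, at 154936991. For MVK and PMVK the bases before those gene starts were not searched, so their counts hold for the printed windows only. The windows were searched on both strands for 4 motifs chosen after the genes' values were known. These were the CCAAT box (CCAAT or ATTGG), TCACNCCA, a core of the sterol regulatory element, the GC box (GGGCGG) and TGATGNAA, an element bound by the stress factor ATF4. A CCAAT box was found in 32.0% of all 35116 RefSeq windows of this length, and 3 or more were found in 2.93%. The single windows of MVK, MVD and FDPS held 5, 3 and 3 CCAAT boxes. The 3 windows of IDI1 held 3, 2 and 0, and the richest is the one printed, so its count is not that of a single draw from all windows. In that window 2 of the 3 share bases in one palindrome and were counted once on each strand. HMGCS1 held 2 in one of its windows, and PMVK held 0. The GGPS1 window printed here held 0, a further window of that gene held 1, and the third held 0. TCACNCCA was found in MVK and in none of the other matched genes, against 3.2% of all windows. Only exact matches were counted, so sterol elements that differ from these letters would be missed. The GC box, in 42.6% of all windows, was found in 11 of the 12 windows and in all 7 matched genes, GGPS1 and PMVK included. The 1 window without it is the GGPS1 window printed here. The ATF4 element, in 3.14% of all windows, was found in 0 of the 12. A match is a description of letters, and no binding was measured. The windows of the 4 genes with 3 or more CCAAT boxes are shown with the PMVK window and a GGPS1 window that held 0. The windows of HMGCS1, which also rose, are not shown. The difference among the printed windows therefore follows from how they were picked. They run 5′ to 3′ on the gene's strand, with CCAAT boxes and, in MVK, the sterol element in capitals.
MVK (chr12:109573544-109573793, plus strand): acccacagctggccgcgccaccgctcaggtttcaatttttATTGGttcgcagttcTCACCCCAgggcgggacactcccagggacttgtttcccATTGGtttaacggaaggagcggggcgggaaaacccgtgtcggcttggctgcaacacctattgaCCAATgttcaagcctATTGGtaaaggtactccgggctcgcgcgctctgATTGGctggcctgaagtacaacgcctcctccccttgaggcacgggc
MVD (chr16:88663092-88663341, minus strand): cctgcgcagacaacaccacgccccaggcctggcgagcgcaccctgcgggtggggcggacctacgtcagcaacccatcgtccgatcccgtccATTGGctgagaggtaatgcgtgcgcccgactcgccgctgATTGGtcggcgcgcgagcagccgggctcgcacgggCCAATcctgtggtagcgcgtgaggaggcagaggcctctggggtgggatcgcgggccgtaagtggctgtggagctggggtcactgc
IDI1 (chr10:1048887-1049136, minus strand): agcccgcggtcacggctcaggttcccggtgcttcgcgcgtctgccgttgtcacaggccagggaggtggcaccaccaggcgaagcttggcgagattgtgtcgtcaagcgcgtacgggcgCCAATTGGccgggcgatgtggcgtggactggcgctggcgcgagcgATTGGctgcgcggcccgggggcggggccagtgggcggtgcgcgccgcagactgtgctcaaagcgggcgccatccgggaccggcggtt
FDPS (chr1:155308616-155308865, plus strand): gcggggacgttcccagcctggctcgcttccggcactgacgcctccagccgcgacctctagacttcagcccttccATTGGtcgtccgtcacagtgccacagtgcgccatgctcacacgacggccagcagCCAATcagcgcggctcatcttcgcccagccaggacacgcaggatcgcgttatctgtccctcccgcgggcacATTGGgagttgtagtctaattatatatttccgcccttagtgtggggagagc
PMVK (chr1:154936720-154936969, minus strand): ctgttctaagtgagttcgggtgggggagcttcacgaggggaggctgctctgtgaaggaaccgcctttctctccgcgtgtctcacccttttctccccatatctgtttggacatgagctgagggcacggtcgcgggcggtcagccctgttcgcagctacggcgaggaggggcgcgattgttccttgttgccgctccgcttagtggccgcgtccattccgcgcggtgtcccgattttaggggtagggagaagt
GGPS1 (chr1:235326966-235327215, plus strand): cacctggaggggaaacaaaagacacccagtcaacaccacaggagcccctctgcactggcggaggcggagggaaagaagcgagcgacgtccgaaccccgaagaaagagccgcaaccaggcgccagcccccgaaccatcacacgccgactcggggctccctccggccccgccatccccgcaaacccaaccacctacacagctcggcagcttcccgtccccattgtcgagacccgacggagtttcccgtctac

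The early steps make HMG-CoA. ACAT2 (chromosome 6, 159760328 to 159779055, GRCh38, GENCODE 29), the cytosolic acetoacetyl-CoA thiolase, had 607.3, 566.3 and 622.4 normalised units in the 3 salinomycin libraries, against 261.6, 275.6 and 286.0 units in the 3 untreated libraries. All salinomycin libraries lay above all untreated ones. It rose 2.18-fold (log2 change 1.12, 95% interval 0.96 to 1.28; limma adjusted p = 3.08e-08), the smallest of the 7 rises. Among genes in the table, its exons overlap exons of SOD2 and TCP1 on the opposite strand, by up to 1106 and 397 bases, and whether the counting used strand is not given in the sources used here. TCP1 rose, with 4845 ± 50.5 units in salinomycin and 3174 ± 66.3 units in untreated libraries, and SOD2 fell, with 1856 ± 144 units in salinomycin and 2216 ± 80.4 units in untreated libraries (SD, n = 3 each). The part of those neighbours in the ACAT2 value was not tested.

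HMGCS1 (chromosome 5, 43289395 to 43313512), the cytosolic HMG-CoA synthase, had 4788, 4646 and 4643 units in salinomycin libraries, against 1259, 1329 and 1235 units in untreated libraries. The libraries of a group lay close together, with a coefficient of variation of 1.77% in salinomycin and 3.83% in untreated cells, and the groups were well apart. The log2 change was 1.88 (95% interval 1.77 to 1.99; limma adjusted p = 1.37e-11), and 5.71% of tested genes had a larger one.

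The middle steps act on mevalonate. MVK (chromosome 12, 109573255 to 109598117), which adds the first phosphate, had 1968, 1995 and 2159 units in salinomycin libraries, against 184.9, 148.9 and 165.4 units in untreated libraries. Per kilobase its untreated level was the lowest of the 8 genes among the values given further on, and the lowest salinomycin library lay far above the highest untreated one. The log2 change was 3.61 (95% interval 3.43 to 3.79; limma adjusted p = 5.62e-12), and 1.25% of tested genes had a larger one. MVK is the gene whose window above held the most CCAAT boxes and the sterol element. Those motifs were chosen after the values were known, and their part in its rise was not tested. MMAB, an enzyme gene of cobalamin metabolism that starts 619 bases away on the opposite strand, was chosen for its position after the values were known. MMAB rose 1.66-fold, with 599.6 ± 65.7 units in salinomycin and 358.6 ± 8.35 units in untreated libraries (limma adjusted p = 5.08e-06), and the pair share up to 225 exonic bases.

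PMVK (chromosome 1, 154924734 to 154936991), which adds the second phosphate, had 879.5, 1017 and 1134 units in salinomycin libraries, against 385.9, 393.7 and 336.1 units in untreated libraries. The salinomycin libraries varied more than for the other genes, by 12.6%, but did not overlap the untreated ones. Its rise was 2.70-fold (log2 change 1.44, SE 0.095; limma adjusted p = 3.54e-08), well below that of the kinase before it.

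MVD (chromosome 16, 88651935 to 88663161), the decarboxylase that yields isopentenyl diphosphate, had 1550, 1693 and 1757 units in salinomycin libraries, against 260.5, 190.4 and 278.5 units in untreated libraries. Untreated replicate 2 was the low one, and the coefficient of variation among untreated libraries was 19.1%, the widest of the 8 genes. The log2 change was 2.79 (95% interval 2.53 to 3.05; limma adjusted p = 7.02e-10).

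IDI1 (chromosome 10, 1039152 to 1049170), the isomerase, had 5983, 5826 and 5757 units in salinomycin libraries, against 665.9, 719.2 and 580.5 units in untreated libraries. The groups were far apart and the salinomycin libraries agreed within a coefficient of variation of 1.98%. The log2 change was 3.16 (95% interval 3.01 to 3.32; limma adjusted p = 4.88e-12), and 1.83% of tested genes had a larger one. WDR37, which starts 368 bases away on the opposite strand and was chosen for its position after the values were known, rose 2.12-fold. It had 764.1 ± 41.5 units in salinomycin and 359.7 ± 5.48 units in untreated libraries.

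**Figure D2:**
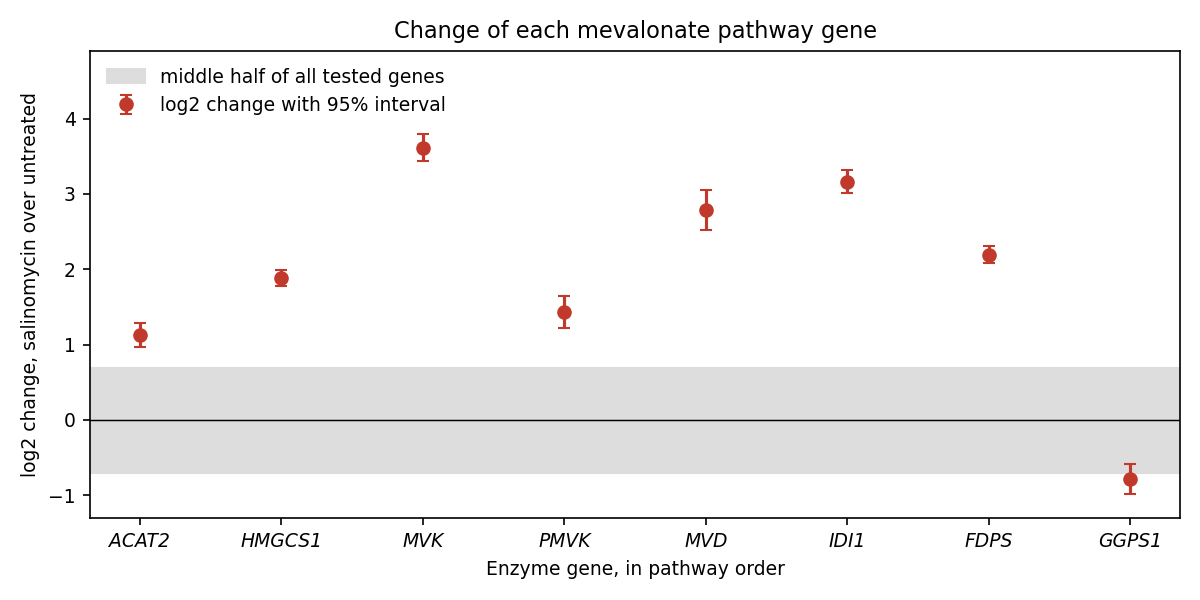
Log2 change of each gene, salinomycin over untreated, with its 95% limma interval, in pathway order. The grey band spans the interquartile range of all tested genes, -0.71 to 0.69, and the 7 genes that rose lie above it while the GGPS1 interval crosses its lower edge.

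The last steps build the longer isoprenoids. FDPS (chromosome 1, 155308748 to 155320666), farnesyl diphosphate synthase, had 6377, 6299 and 6390 units in salinomycin libraries, against 1410, 1441 and 1316 units in untreated libraries. It varied least of the 8 genes in salinomycin, by 0.778%, and the groups did not overlap. The log2 change was 2.19 (95% interval 2.09 to 2.30; limma adjusted p = 5.07e-12). GENCODE lists 8 pseudogenes named for FDPS, and reads from near-identical copies could have been split in counting, so its level is uncertain to that extent.

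GGPS1 (chromosome 1, 235327350 to 235344532), geranylgeranyl diphosphate synthase, had 239.8, 235.3 and 224.4 units in salinomycin libraries, against 451.9, 385.1 and 374.5 units in untreated libraries. Every salinomycin library was below every untreated one. The log2 change was -0.79 (95% interval -0.98 to -0.59; limma adjusted p = 5.09e-06), and 23.2% of tested genes had a lower one. With scaling by library size alone, which moves the median of all tested genes up by 0.19, it was -0.59 and still passed. Its first exons overlap ARID4B, a chromatin gene on the opposite strand whose annotated start is 869 bases away, by up to 138 bases. ARID4B, chosen for its position after the values were known, also fell, by 0.25 on the log2 scale, with 660.4 ± 59.9 units in salinomycin and 786.0 ± 24.6 units in untreated libraries (limma adjusted p = 0.00667). GGPS1 also shares up to 336 exonic bases with TBCE on its own strand, which had 21.2 ± 3.61 units in salinomycin and 19.6 ± 1.08 units in untreated libraries and did not pass (limma adjusted p = 0.714).

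Summed over the 8 genes, the libraries had 22393, 22277 and 22687 units with salinomycin, against 4880, 4882 and 4571 units in untreated cells. The sum was 4.70-fold higher with salinomycin (exact permutation p = 0.1, two-sided, below which 3 libraries against 3 cannot go). As a share of all deposited values, the 8 genes made up 0.147% ± 0.00151 in salinomycin and 0.0274% ± 0.00101 in untreated libraries (SD, n = 3 each). The mitochondrially encoded transcripts made up 0.289% to 0.351% of all values in salinomycin and 3.37% to 3.72% in untreated libraries. The part of that shift in the shares was not tested. The trimmed-mean scaling, which limits the pull of such a group on the other genes, gave the sum above.

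Because the steps rose unequally, the balance of transcripts that are neighbours among those described here was compared within each library, where scaling between libraries plays no part. Of 7 ratios of a gene to the one before it, 6 did not overlap between groups, with 83% of tested genes not overlapping on their own levels. The reduction of HMG-CoA lies between HMGCS1 and MVK, so that pair skips a step. The log2 ratio of MVK to HMGCS1 was -1.28, -1.22 and -1.10 in salinomycin libraries, against -2.76, -3.15 and -2.89 in untreated libraries. The kinase had thus gained on the synthase by 1.73. PMVK to MVK moved the other way, with -1.16, -0.97 and -0.93 in salinomycin libraries, against 1.06, 1.40 and 1.02 in untreated libraries. The change was -2.18, so MVK gained on the kinase after it as well. These ratios are of units not divided by length, so only their differences between groups can be read, not their signs.

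The ratio with the largest difference was GGPS1 to FDPS, the step where geranylgeranyl diphosphate leaves the farnesyl branch. It was -4.73, -4.74 and -4.83 in salinomycin libraries, against -1.64, -1.90 and -1.81 in untreated libraries, a difference of -2.98 on the log2 scale. HMGCS1 to ACAT2, MVD to PMVK and FDPS to IDI1 differed by 0.76, 1.35 and -0.97. Each of these 6 ratios gave an exact permutation p of 0.1, two-sided, or 0.117 after Benjamini-Hochberg adjustment over the 7, so none could pass with 3 libraries a group. IDI1 to MVD overlapped, with a mean of 1.81 ± 0.122 in salinomycin and 1.44 ± 0.434 in untreated libraries (SD, n = 3 each; exact permutation p = 0.3). The overlap came from untreated replicate 2, at 1.91, against 1.35 and 1.06 in the other untreated libraries. The difference of 0.37 was 0.61 without untreated replicate 2, where the groups no longer overlapped (exact permutation p = 0.1), and 0.18 without untreated replicate 3 (exact permutation p = 0.5).

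**Figure D3:**
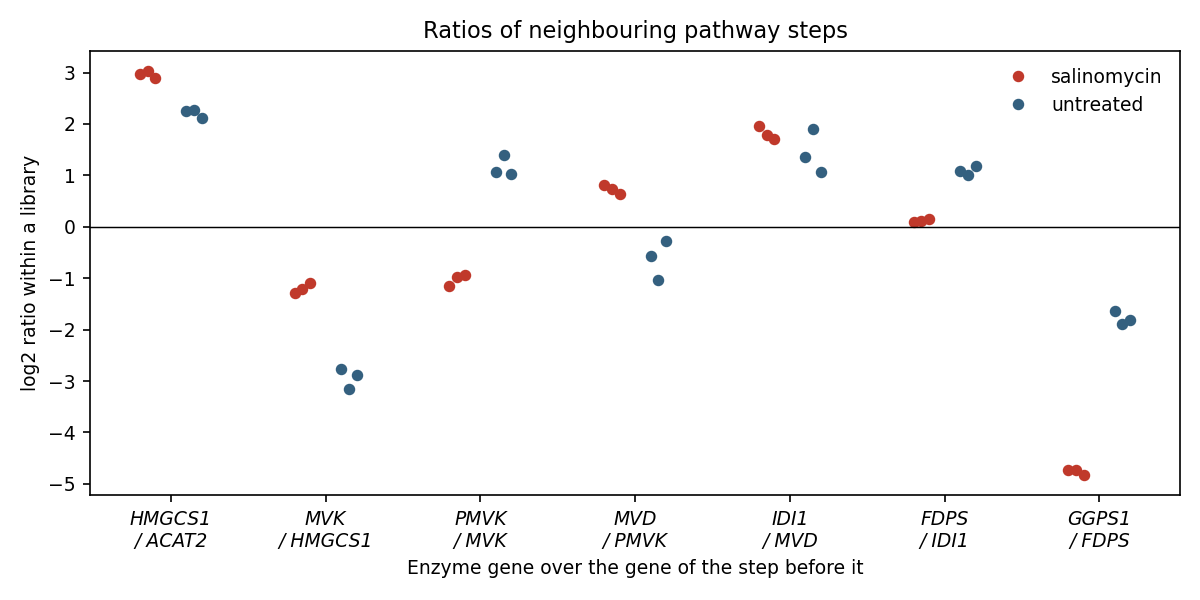
Log2 ratio of each gene to the gene before it among those described here, within each library, salinomycin in red and untreated in blue. MVK to HMGCS1 skips the reduction of HMG-CoA. The groups are apart for every pair except IDI1 to MVD, where untreated replicate 2 lies among the salinomycin libraries, and GGPS1 to FDPS shows the widest gap, at -4.76 against -1.78 on average.

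Levels of different genes were ordered per kilobase of the principal transcript in GENCODE 29. In salinomycin libraries the order was FDPS, with 4299.8 ± 33.4 units per kilobase, IDI1 with 1738 ± 34.4, HMGCS1 with 1338 ± 23.7, MVD with 914 ± 58.3, PMVK with 789 ± 99.5, MVK with 743 ± 37.6, ACAT2 with 188 ± 9.13 and GGPS1 with 80.5 ± 2.74 (SD, n = 3). MVD overlapped PMVK and PMVK overlapped MVK between libraries, and the other neighbours did not overlap. In untreated libraries the order was FDPS, HMGCS1, PMVK, IDI1, GGPS1, MVD, ACAT2 and MVK, with levels between 939.6 ± 44.0 and 60.6 ± 6.56 units per kilobase. GGPS1 and MVD overlapped there.

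FDPS held 42.6% ± 0.558 of the summed level per kilobase in salinomycin and 42.6% ± 0.615 in untreated libraries. IDI1 held 17.2% ± 0.571 in salinomycin and 8.79% ± 0.655 in untreated libraries, and MVK held 7.36% ± 0.260 in salinomycin and 2.75% ± 0.301 in untreated libraries. GGPS1 held 0.799% ± 0.0388 in salinomycin and 6.31% ± 0.524 in untreated libraries (SD, n = 3 each). With the union of all exons as the length, FDPS held 29.9% ± 0.479 in salinomycin and 28.0% ± 0.235 in untreated libraries, so its share depends on the length used. With that length PMVK came before MVD in salinomycin libraries. In untreated libraries it came before HMGCS1, which it overlapped, and ACAT2 came before MVD. FDPS stayed highest in both groups, and the lowest was GGPS1 in salinomycin and MVK in untreated libraries under either length.

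**Figure D4:**
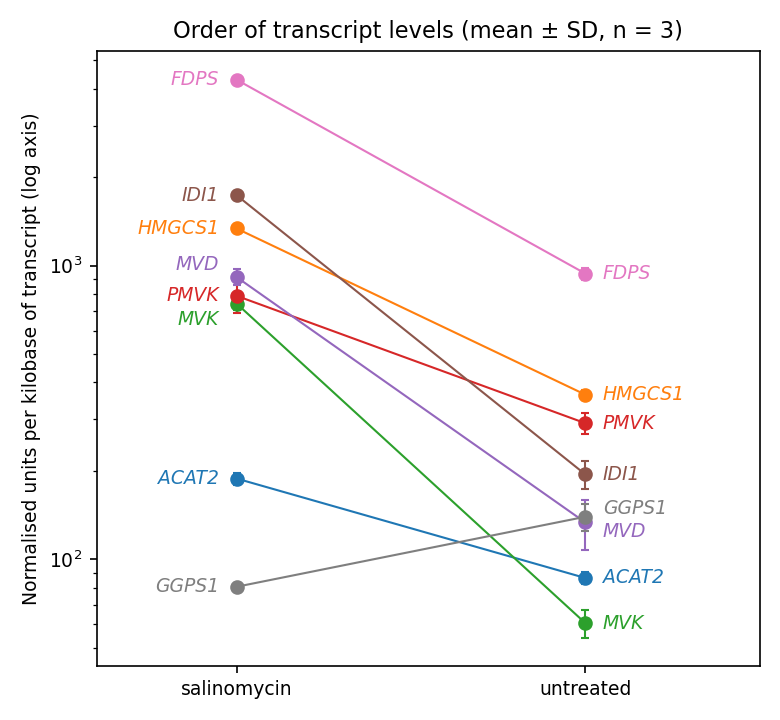
Normalised units per kilobase of the principal transcript (log axis; mean and SD, n = 3), salinomycin on the left and untreated on the right, with a line for each gene. MVK lies just below PMVK in salinomycin libraries and last in untreated libraries, and GGPS1 is the gene whose salinomycin level, 80.5, is below its untreated level, 139.

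The authors' deposited table gave log2 changes between -0.593 (GGPS1) and 3.81 (MVK) for the 8 genes. Its adjusted p was 1.01e-06 for GGPS1, the largest of the 8 in the authors' deposited table. For GGPS1 and MVK the fit used here gave log2 changes of -0.79 and 3.61, or -0.595 and 3.80 with scaling by library size alone. In the authors' deposited table of 21624 gene sets, the Reactome set of cholesterol biosynthesis had a normalised enrichment score of 2.25 (adjusted p = 6.38e-06), and a set of SREBP target genes had 2.16 (adjusted p = 5.57e-05). In the authors' deposited table the gene ontology set of isoprenoid biosynthesis scored 1.67 (adjusted p = 0.0426). The gene ontology set of prenyltransferase activity also passed in the authors' deposited table, with a score of 1.75 (adjusted p = 0.026). The set of Rab geranylgeranylation scored 0.784 and did not pass in the authors' deposited table (adjusted p = 0.924). In the authors' deposited table the wider set of isoprenoid metabolism scored 1.02 (adjusted p = 0.656), and the set of statin action on cholesterol production scored 1.46 (adjusted p = 0.183), so neither passed. The set of terpenoid metabolism passed in the other direction in the authors' deposited table, with a score of -1.72 (adjusted p = 0.0146). How many of the 8 genes each set holds was not analysed here. The sets named were chosen by topic from all those scored, and the share of all sets that passed was not analysed here. Their scores come from the same libraries, so they are not separate support.

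For each enzyme the tested gene with the nearest profile was taken, by root mean square distance of log2 values over the 6 libraries, centred on the untreated mean, among 10336 genes with a mean of 100 units or more. The nearest to MVK was OXCT1, a ketone body transferase gene, at a distance of 0.0882 and with a log2 change of 3.56. The nearest to MVD was CHPF, at 0.0888, to IDI1 HOXB9, at 0.0694, and to PMVK TUBB2A, at 0.0507. For ACAT2, HMGCS1, FDPS and GGPS1 they were SLC25A51, COG1, PLPP5 and TMEM128, at 0.0285, 0.0296, 0.0352 and 0.0479. None of these is an enzyme of the pathway, and with 2 groups the measure mostly reads the size of the change.

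Genes on either side of the pathway were counted in lists chosen for their roles, to be read against the 41.6% of tested genes that rose and the 40.2% that fell. With scaling by library size alone these counts over all tested genes were 6461 and 4353, against 5451 and 5266. Of 7 tested genes of 8 that supply acetyl-CoA or use it and HMG-CoA elsewhere, 4 rose and 3 fell. Their median log2 change was 0.87. ACSS2, which makes cytosolic acetyl-CoA from acetate, had 3207, 3231 and 3097 units in salinomycin libraries, against 860.5, 828.8 and 762.9 units in untreated libraries, a 3.89-fold rise (limma adjusted p = 3.05e-11). ACLY, which makes cytosolic acetyl-CoA from citrate and was chosen for naming after its values were seen, fell by 0.94 on the log2 scale. It had 11078 ± 222 units in salinomycin and 21258 ± 1111 units in untreated libraries (SD, n = 3 each), so ACSS2 and ACLY moved in opposite directions. SLC25A1, the mitochondrial citrate carrier gene of the same list, was also named after its values were seen. It rose 1.83-fold (limma adjusted p = 4.19e-08), so the genes of the citrate route did not move together. The mitochondrial thiolase ACAT1 and the mitochondrial acetyl-CoA synthetase ACSS1 rose 2.19-fold and 2.03-fold.

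Downstream, 11 of 13 genes from squalene to cholesterol rose and 2 fell, and the median of their log2 changes was 1.28. The count that fell was 1 with scaling by library size alone, and 1 without salinomycin replicate 3, untreated replicate 1 or untreated replicate 2. DHCR7, SQLE and MSMO1, which carry out a last reduction, squalene epoxidation and sterol demethylation, rose 9.70-fold, 5.34-fold and 4.85-fold. Among 17 tested genes of sterol sensing and transport, 7 rose and 7 fell, shares close to those of all tested genes, or 10 and 6 with scaling by library size alone, with a median of 0.12. INSIG1, whose product holds SREBP in the endoplasmic reticulum when sterols are plentiful and is itself an SREBP target, had 3260, 3164 and 3084 units in salinomycin libraries, against 267.0, 271.3 and 232.6 units in untreated libraries, a 12.3-fold rise close in size to that of MVK. The falls were led by ABCA1, a cholesterol exporter, with a log2 change of -2.51, and MYLIP, a ubiquitin ligase that degrades lipoprotein receptors, with -2.21. ABCA1 had 248.1, 260.6 and 209.3 units in salinomycin libraries, against 1159, 1394 and 1566 units in untreated libraries. Both are known targets of the oxysterol-sensing liver X receptors. So are ABCG1 and SREBF1 of the same list, named after their values were seen, and neither fell. ABCG1 did not pass (log2 change 0.12; limma adjusted p = 0.292), and SREBF1 rose by a log2 change of 0.24 (limma adjusted p = 0.00801). SREBF2, the gene of SREBP2 and of the same list, was also named after its values were seen. It did not pass (log2 change -0.017, limma adjusted p = 0.807), and the activity of SREBP2 was not tested.

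Dolichol and ubiquinone synthesis are non-sterol users of isoprenoids. In that list 9 of 17 tested genes of 18 rose, 1 fell and 7 did not pass. With upper-quartile scaling 8 rose and 3 fell, and with scaling by library size alone 12 rose and 1 fell. The list's median log2 change was 0.28, and 2 fell without salinomycin replicate 3 or untreated replicate 1. DHDDS, a subunit of the enzyme that extends farnesyl diphosphate towards dolichol, rose most. It had 3274, 3297 and 3363 units in salinomycin libraries, against 551.3, 557.5 and 487.6 units in untreated libraries, a 6.22-fold rise (limma adjusted p = 5.83e-12). DOLPP1, which recycles dolichol diphosphate, and COQ4, a ubiquinone synthesis gene, rose 2.48-fold and 2.41-fold. The gene that fell was COQ7, a hydroxylase gene of ubiquinone synthesis, by 0.40 on the log2 scale, named after its values were seen.

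Of 11 genes that attach or trim prenyl groups on proteins, 6 rose, 3 fell and 2 did not pass. The share called was thus near that of all tested genes. With scaling by library size alone 8 of these genes rose and 3 fell. Their median log2 change was 0.34. RABGGTA, a subunit of the Rab geranylgeranyl transferase, rose by a log2 change of 0.86, whereas FNTB, the beta subunit of farnesyltransferase, and CHML, a Rab escort protein, fell by 0.96 and 0.88 on the log2 scale. Their counterparts in the list, RABGGTB, FNTA and CHM, were named after their values were seen and did not follow them. RABGGTB did not pass (log2 change 0.14, limma adjusted p = 0.108), and FNTA and CHM rose by log2 changes of 0.36 and 0.38. FNTB had 129.6, 102.2 and 149.3 units in salinomycin libraries, against 256.2, 236.2 and 244.4 units in untreated libraries. Among 15 small GTPases that carry prenyl groups, 1 rose and 10 fell, or 3 rose and 6 fell with scaling by library size alone, with a median of -0.35. Without untreated replicate 2, 3 rose. The gene that rose was RALA, by a log2 change of 0.92, while its close relative RALB fell by 0.82 on the log2 scale.

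**Figure D5:**
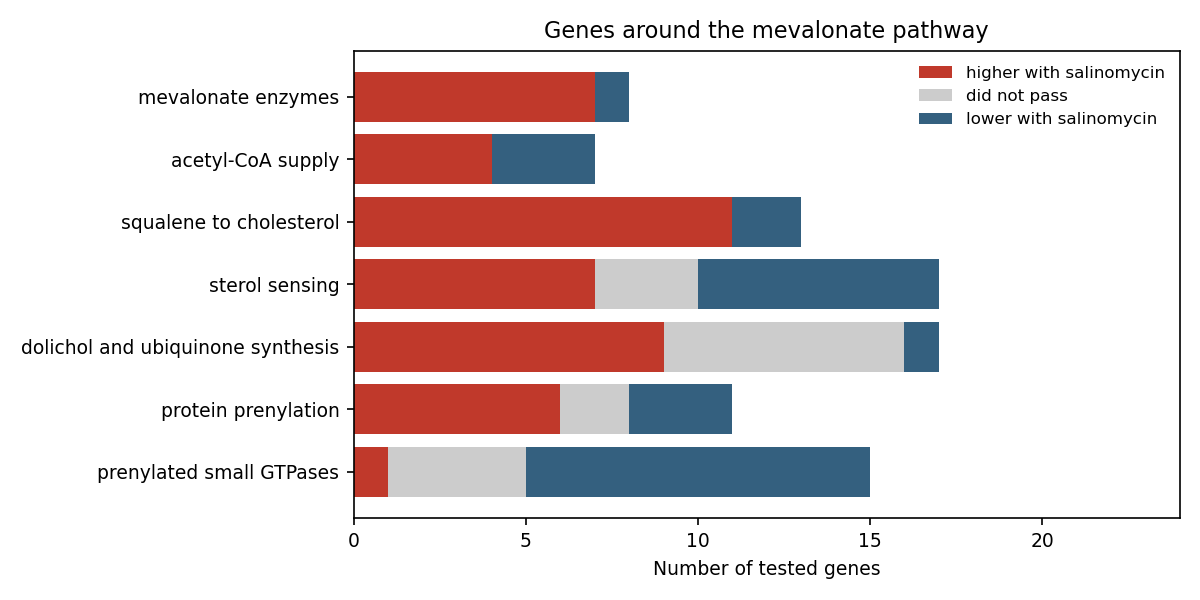
Number of tested genes of each list that were higher (red), did not pass (grey) or were lower (blue) with salinomycin, by limma at an adjusted p of 0.05. The mevalonate enzymes (7 higher, 1 lower) and the sterol branch (11 higher, 2 lower) are mostly red, and the prenylated small GTPases (1 higher, 10 lower) are mostly blue, or 3 higher and 6 lower with scaling by library size alone.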

How the data were processed

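RNA-seq gene values of 6 A549 libraries were compared, 3 per group, mapped by column name to the labels. The submitters' processing notes name GRCh38 as build. Which aligner, counter and annotation the authors used is not given in the sources used here. Deposited signal values were whole numbers rescaled between libraries by the authors, and none was below 1, which reads as an added 1. Per the file headers, the authors' tables also gave log2 fold changes, enrichment scores and p-values.

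The added 1 was subtracted, libraries were scaled by the trimmed mean of M values (TMM, trimming 30% of log ratios and 5% of levels) and log2(value + 1) was tested with limma 3.58.1 in R 4.3.3 with a mean-variance trend. Genes entered the test with 3 or more libraries at 10 or above, and 3582 did not. Fold changes are on this scale. Reads were estimated from the steps that rescaling leaves in values up to 60, by likelihood, and are approximate. Within groups, chi-square per gene between library pairs was 2.86 to 6.73, above the sampling noise that a library deposited again would show. This does not tell separate cultures from separate preparations of 1 culture. Nothing in the labels beyond the words biological replicate says how the cultures were kept apart, so p-values measure the spread between these libraries.

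The members, lists and rules were chosen with earlier results of these data known. Named genes were the 8 enzymes, up to 3 genes per list (largest absolute change, adjusted p under 0.05, no overlap between groups, a mean of 10 or more), and the nearest profile to each enzyme. Enzyme coordinates are 1-based, from GENCODE 29, and promoter sequences are RefSeq's. Some genes of the pathway and of the lists are not reported here. The fit was tested on simulated data. Alternatives were other scalings, filters and pseudocounts (0.5 and 8), limma-voom on the estimated reads, a replicate block and leaving out each library. The exon-union length was added after seeing the data.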

Additional observations from a re-analysis of the deposited data

How the results depend on the processing

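Under all 15 alternatives 7 enzymes were higher and 1 was lower, and every log2 change kept its sign and passed, with ranges of 3.53 to 3.80 for MVK and -0.871 to -0.595 for GGPS1 and a largest adjusted p of 5.19e-05. The direction of the 7 step ratios and of the summed level held in the 9 alternatives run for each; with 3 against 3 none could pass. The counts of some lists moved by more than 1.5 times. With scaling by library size, 1 gene from squalene to cholesterol fell, and 3 small GTPases rose and 6 fell. With upper-quartile scaling 3 genes of dolichol and ubiquinone synthesis fell, and with a pseudocount of 8, 2 did. With limma-voom on estimated reads 2 small GTPases rose. Leaving out each library in turn gave 1 to 2 lower genes from squalene to cholesterol (1 without salinomycin replicate 3, untreated replicate 1 or untreated replicate 2), 1 to 2 lower in dolichol and ubiquinone synthesis (2 without salinomycin replicate 3 or untreated replicate 1) and 1 to 3 higher small GTPases (3 without untreated replicate 2). The cause was not tested. Same-numbered libraries did not deviate together (correlations across genes of -0.172, -0.013 and -0.033). Pairs of unlike number gave -0.154 to 0.194. With 3 libraries a group this check shows no pairing by number and cannot exclude one. With a replicate block 5325 genes were higher and 5130 lower, against 5451 and 5266 without it, and the calls of the 8 enzymes were the same. Depth was estimated, not given, and limits low genes most.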
